A study of Mus musculus with 37 samples.

Results

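The 10 genes described here mark the epithelium of the airways and lung (Scgb1a1, Scgb3a2, Sftpa1, Sftpb, Sftpc) or simple epithelium in general (Wfdc2, Krt8, Krt18, Krt19, Epcam), and they were followed across mouse lymph nodes and spleen. They were chosen by symbol from the 56351 genes of the deposited count table, with earlier results of these data in view, so their own levels are given as a description and carry no test. All mice carried the same genotype, CD169 Cre KI/KI with a homozygous Rpl22HA allele, and this holds for the isotype control too. The Cre is expressed from the CD169 (Siglec1) locus, and it switches on a haemagglutinin-tagged copy of the ribosomal protein Rpl22, so that ribosomes can be pulled down with the mRNA they carry. The series' own design text says that the tagged allele was activated in all tissues, while the labels name the cells cd169 macrophages. The libraries came from 11 node sites (mediastinal, deep cervical, super cervical, inguinal, iliac, duodenal, jejunal, ileal, ceco-colonic, liver and celiac) and from spleen, with 3 libraries each, and from 1 isotype pull-down of jejunal node. Age, sex and any pooling of mice are not given in the sources used here, so a spread between libraries may be technical.

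Scgb1a1 and Scgb3a2 encode small secreted proteins, the secretoglobins, that club cells release into the lining fluid of the conducting airways. Sftpa1, Sftpb and Sftpc encode surfactant proteins, of which the first is a collectin of innate defence and the others are hydrophobic proteins that help the surface film spread in the alveoli. Sftpc is a classical marker of alveolar type 2 cells. Krt8 and Krt18 encode partner keratins that assemble into one filament in simple epithelia, Krt19 encodes a further keratin of simple and glandular epithelium, Epcam encodes an adhesion molecule of epithelial cells, and Wfdc2 encodes a secreted protein of airway and glandular epithelium. None of these genes is a marker of macrophages.

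The 22 pull-down libraries with 1000000 counts or more held 1165387 to 69139450 counts, and the mediastinal ones were the deepest with 41240156 to 69139450. They cover mediastinal, deep cervical, super cervical, inguinal, ileal and ceco-colonic node and spleen with 3 libraries each, plus 1 jejunal library. The other 14 pull-downs held 221911 to 917912 counts, of which 39% to 85.6% lay in 3 features that carry ribosomal sequence. In those 14 libraries 3 counts correspond to 3.27 to 13.5 CPM (counts per 1000000 counts of the library), against 0.0434 to 2.57 CPM in the 22. Levels below are therefore CPM in the deeper libraries, with totals scaled by edgeR's TMM method, and as mean ± SD over 3 libraries. Siglec1 itself was low, at 1.34 ± 0.92 CPM in mediastinal node against 0.516 ± 0.802 CPM over the other nodes. In the mediastinal libraries 3 counts correspond to 0.0434 to 0.0727 CPM, so the gene was detected there. Marco, a receptor of sinus macrophages, stood at 2232 ± 120 CPM there. CPM are not divided by gene length, so levels of different genes are not ranked against each other. In a pull-down from whole tissue, fewer cells of a type and less RNA per cell cannot be told apart.

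Both secretoglobins were mediastinal transcripts. Scgb1a1 had 660, 275 and 1780 CPM in the 3 mediastinal libraries. In every other library of 1000000 counts or more it had 5.05 CPM or less, a value reached in the jejunal library. Its mediastinal mean was 905 ± 782 CPM, and the next site, inguinal node, had 2.61 ± 1.86 CPM. Of all Scgb1a1 counts in the 37 libraries 99.92% lay in mediastinal node, a share that the depth of those libraries also raises. Scgb3a2 had 228, 83.2 and 532 CPM in mediastinal node, against 3.91, 2.96 and 0.223 CPM in deep cervical node, the next highest site with 3 libraries, and 5.05 CPM in the single jejunal library. The groups did not overlap for either gene, and mediastinal replicate 3 was the highest and replicate 2 the lowest for both.

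The secretoglobins kept a nearly fixed proportion while their level moved. Scgb1a1 spanned a 6.47-fold range and Scgb3a2 a 6.39-fold range over the mediastinal libraries, whereas the count of Scgb1a1 per count of Scgb3a2 stayed between 2.9 and 3.35. Per count of Wfdc2 it ran from 7.83 to 10.4 and per count of Krt19 from 39.8 to 53.4. Epcam broke this pattern, with 39.4 to 157 counts of Scgb1a1 for each of its own, since Epcam spanned only a 1.62-fold range. The pattern held less closely for Sftpa1 too, with 115 to 227 counts of Scgb1a1 per count of Sftpa1. Krt8, Krt18 and Krt19 spanned 9.09-fold, 7.33-fold and 8.69-fold ranges over the same libraries.

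**Figure D1:**
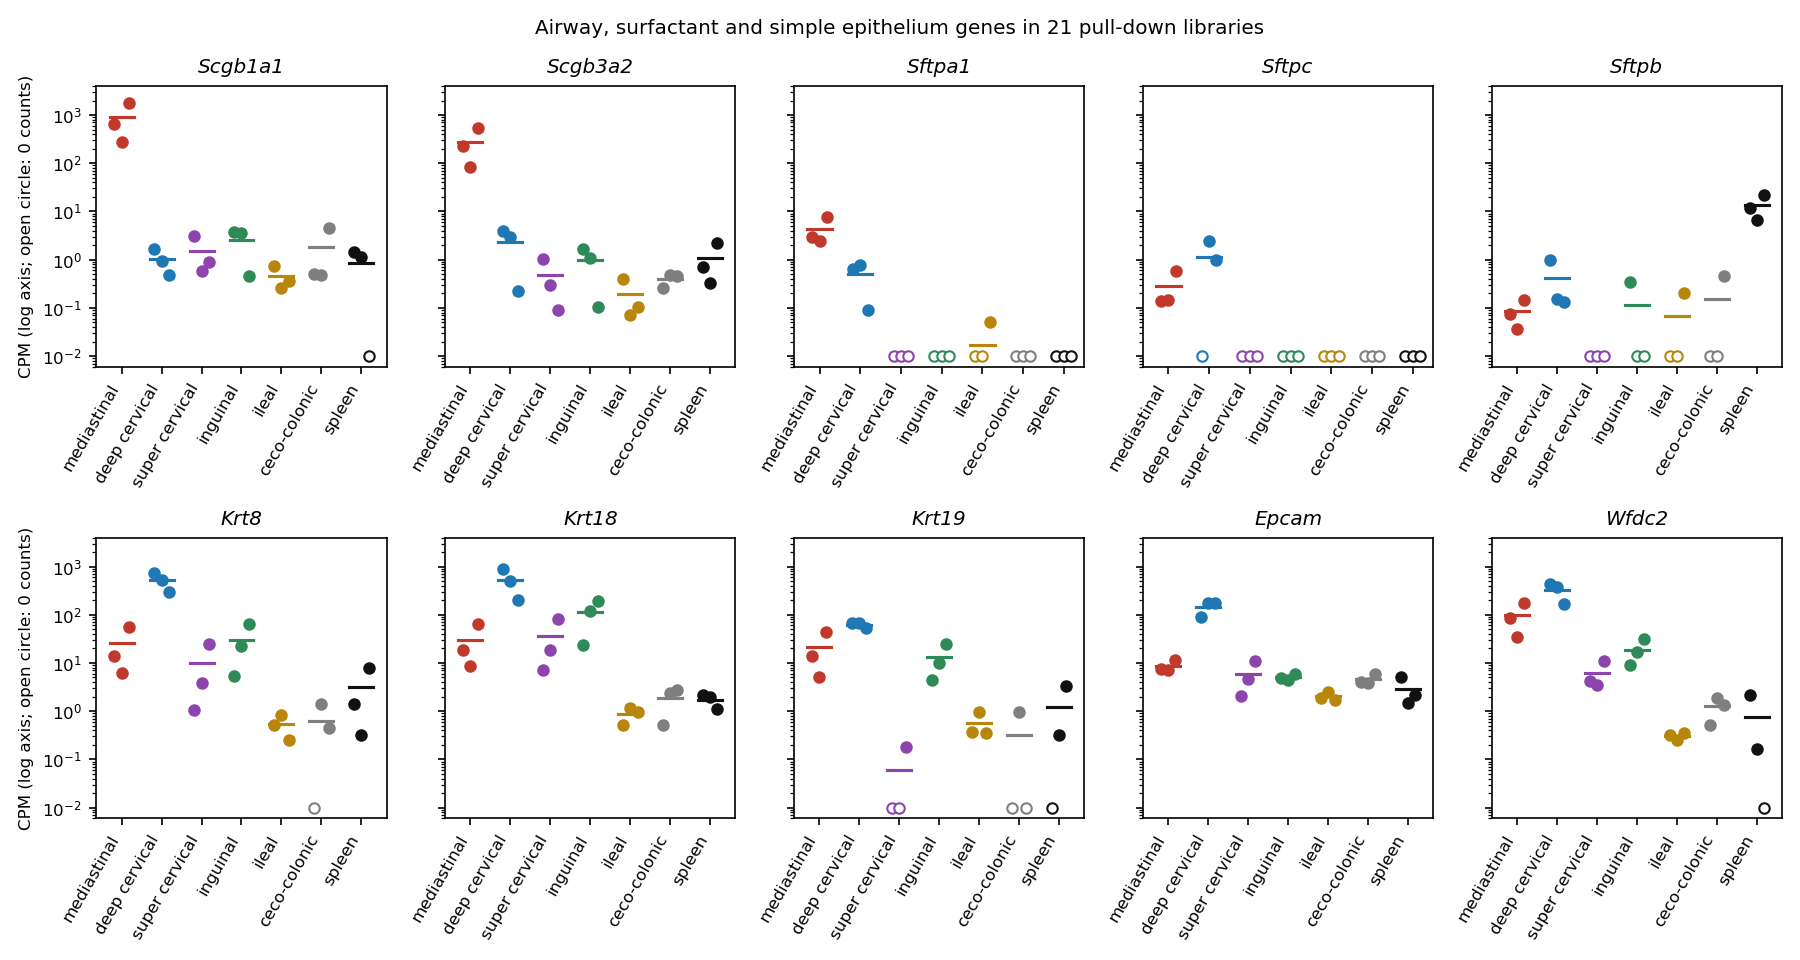
Each point is the CPM (log axis) of one gene in one of 21 pull-down libraries, 3 per site, bars are means over the 3 libraries and open circles are libraries with 0 counts. Scgb1a1, Scgb3a2 and Sftpa1 stand highest in mediastinal node, the keratins and Epcam in deep cervical node, and Sftpb in spleen, where it averages 13.4 CPM.

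The surfactant genes divided into 3 patterns. Promoter sequences of Sftpa1 and Sftpb are shown because these genes of one functional family were high in different organs. They run from 250 bases before to 50 after the annotated start, from RefSeq on the build GRCm38.p6, in the direction of the gene. Capitals mark TATAAA, the TATA box, and CTCAAG, the core that the lung and thyroid factor NKX2-1 binds. Sftpa1 lies at chr14:41131538-41131837 on the plus strand and Sftpb at chr6:72304360-72304659 on the plus strand.
Sftpa1: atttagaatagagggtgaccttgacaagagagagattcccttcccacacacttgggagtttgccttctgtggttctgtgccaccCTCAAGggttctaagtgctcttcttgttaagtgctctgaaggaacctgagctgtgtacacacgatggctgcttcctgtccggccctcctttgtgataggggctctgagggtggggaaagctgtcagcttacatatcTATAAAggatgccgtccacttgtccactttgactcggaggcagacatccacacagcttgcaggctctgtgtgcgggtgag
Sftpb: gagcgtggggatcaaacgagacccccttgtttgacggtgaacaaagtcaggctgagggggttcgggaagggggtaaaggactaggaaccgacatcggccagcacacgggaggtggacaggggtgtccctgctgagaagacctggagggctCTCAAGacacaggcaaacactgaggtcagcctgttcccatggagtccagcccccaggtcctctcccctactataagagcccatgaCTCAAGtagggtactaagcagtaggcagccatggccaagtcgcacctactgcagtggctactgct
Searched on both strands, Sftpa1 held TATAAA 30 bases and CTCAAG 166 bases before the start. Sftpb held CTCAAG at 100 and at 15 bases before the start and no TATAAA. Among all 27025 RefSeq promoters of this length 14.2% held TATAAA and 16.2% held CTCAAG, so such matches are common and describe the letters only.

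Sftpa1 followed the secretoglobins by site. It had 2.91, 2.39 and 7.83 CPM in mediastinal node, on 229, 133 and 756 counts, and 99.11% of its counts lay there. Deep cervical node had 0.651, 0.779 and 0.0894 CPM, a single ileal library held 1 count, and the spleen and all other nodes held 0. Replicate 3 was again the highest mediastinal library, 3.28-fold above the lowest.

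Sftpc, the alveolar type 2 marker, was scarce everywhere. The mediastinal libraries held 11, 8 and 55 counts of it beside 51871, 15331 and 171973 counts of Scgb1a1. The deep cervical libraries, which are shallower, held 0, 16 and 22 counts, so their mean of 1.16 ± 1.26 CPM stood above the mediastinal 0.284 ± 0.247 CPM and overlapped it. The spleen and every other node held 0 counts, the 14 shallow libraries included.

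Sftpb was highest in spleen. Its CPM were 11.5, 6.73 and 22.0 in the 3 spleen libraries, on 16, 42 and 20 counts. Mediastinal node had 0.0857 ± 0.0551 CPM on 6, 2 and 14 counts, and deep cervical node had 0.422 ± 0.48 CPM. The lowest spleen library thus lay above every node library of 1000000 counts or more, and 59.54% of all Sftpb counts fell in spleen although its libraries are among the shallower ones. The genes whose log2 CPM followed Sftpb most closely over the 22 libraries were the predicted gene Gm9800 (Pearson r = 0.90), Dmtn (0.88), which encodes the red cell membrane protein dematin, and Gm15815 (0.87). Dmtn had 160 ± 76.1 CPM in spleen and 3.79 ± 0.18 CPM in mediastinal node, and Gm9800 had 1800 ± 278 CPM in spleen and 0.0129 ± 0.0112 CPM in mediastinal node.

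The genes nearest to the other airway members are of airway epithelium in part. Over the same 22 libraries, Scgb1a1 was followed most closely by Bpifa1, a secreted defence protein of the upper airways, at r = 0.91, by Gm10221 at 0.91 and by the sulfotransferase gene Sult1d1 at 0.88. Scgb3a2 was followed by Sult1d1 at 0.90, and by the pseudogene Rpl10a-ps1 and Gm10221 at 0.88 each. Sftpa1 was followed by Krt15, a keratin of basal epithelial cells, at 0.98, by Anxa8 at 0.95 and by Adh7, an alcohol dehydrogenase of upper digestive and airway lining, at 0.94. Sftpc was followed by Cabcoco1 at 0.95 and by the noncoding genes Gm50244 and Sox6os at 0.91 and 0.90. These coefficients describe 22 libraries that share sites and differ in depth, so genes at 0 in most sites resemble each other by that alone.

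Setting mediastinal node against the mean of the other 5 deeply sequenced nodes gave a wider view of which epithelial marker transcripts were higher there. In this edgeR quasi-likelihood fit the log2 fold change compares the mediastinal log level with the average log level of the other nodes, so a gene can be called higher although 1 other node exceeds it. Of the 10 genes 6 were called higher at an adjusted p below 0.05 and 0 lower, where 24.3% of all 19702 genes tested were called higher and 18.1% lower. Nothing is read from that count, because the genes were picked with this contrast known, and those at 0 in most sites passed the filter on low counts through the site where they are high. That limit of the filter also holds for genes of the airway, ciliated, basal, thyroid and salivary lists below that are near 0 outside 1 node. Counts of the 10 genes called in the other contrasts below are likewise a description, and nothing is read from them.

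Airway secretory markers other than the 10 genes rose in mediastinal node. Of 12 such genes 11 could be tested, 9 were called higher and 0 lower. Their median log2 fold change was 6.21, against 0.08 over all genes. This list and those below were chosen with earlier results of these data known, so their counts, medians and p-values are a description. Scgb3a1, another secretoglobin, averaged 278 ± 242 CPM in mediastinal node and 26.4 ± 91.2 CPM over the other nodes (log2 fold change 6.21 ± 0.97, edgeR adjusted p = 0.000252). Bpifa1 averaged 100 ± 104 CPM in mediastinal node and 0.402 ± 0.752 CPM elsewhere (8.93 ± 0.54, edgeR adjusted p = 6.51e-11). The carbonyl reductase gene Cbr2 rose by 5.12 ± 0.50 and Bpifb1, a relative of Bpifa1, by 6.93 ± 1.09 on the log2 scale (edgeR adjusted p = 3.87e-07 and 0.000409). Muc5ac, the surface goblet cell mucin, was at 0.0231 ± 0.0118 CPM in mediastinal node and too low to test.

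Markers of ciliated cells rose as well, with 8 of 10 called higher and 0 lower. They were not particular to mediastinal node, since 4 of the 10 were called higher in deep cervical node, where 20.7% of all genes were. Their summed CPM overlapped, at 24.2 to 98.7 in mediastinal and 37.1 to 54.1 in deep cervical node. Sec14l3, a lipid transfer protein of ciliated cells, averaged 19.6 ± 14.1 CPM in mediastinal node and 0.444 ± 0.493 CPM elsewhere (5.89 ± 0.47, edgeR adjusted p = 7.55e-10). Foxj1, the transcription factor that directs the building of motile cilia, averaged 3.31 ± 2.67 CPM there and 0.233 ± 0.297 CPM elsewhere (4.16 ± 0.57, edgeR adjusted p = 1.03e-05). Tppp3 and the dynein light chain gene Dynlrb2 rose by 2.18 ± 0.34 and 6.32 ± 0.75 (edgeR adjusted p = 3.68e-05 and 2.23e-06). Of 12 stratified and basal epithelium genes 8 could be tested, and 4 rose. The basal keratins Krt15 and Krt5 were among them, by 9.80 ± 0.60 and 5.74 ± 0.62 (edgeR adjusted p = 2.63e-10 and 3.87e-07), together with Krt17 and Perp. In deep cervical node 5 of the same 8 were called higher, namely Dsp, Krt15, Krt5, Perp and Trp63. The summed CPM of this list overlapped, at 39.2 to 144 in mediastinal and 89.5 to 122 in deep cervical node. Without mediastinal replicate 3 the mediastinal counts of higher genes were 7, 6 and 2 in the airway secretory, ciliated and stratified lists.

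The alveolar list gave a mixed picture. Of 12 genes 8 could be tested, 5 were called higher and 1 lower. Their median log2 fold change was 0.95. Napsa, Lpcat1 and Hopx rose by 0.83 ± 0.27, 1.07 ± 0.31 and 1.19 ± 0.29 (edgeR adjusted p = 0.0133, 0.00667 and 0.00209), and these genes stood at 36.3 ± 14.5, 16.9 ± 5.36 and 14.6 ± 5.71 CPM in the other nodes as well. Etv5, a transcription factor of type 2 cells, averaged 22.0 ± 6.31 CPM in mediastinal node and 5.88 ± 3.99 CPM elsewhere (1.96 ± 0.34, edgeR adjusted p = 0.000111). The call of Napsa was lost without mediastinal replicate 3. Ager, the alveolar type 1 marker, was lower by 0.79 ± 0.32 (edgeR adjusted p = 0.044), a call that was lost in most alternatives tried. Its mediastinal mean of 5.68 CPM lay below deep cervical node only, at 367.5 CPM. Super cervical, inguinal, ileal and ceco-colonic node had less, at 3.25, 3.96, 4.0 and 4.03 CPM. The type 2 markers Slc34a2, Lamp3 and Cxcl15 were too low to test, at 0.0333, 0.64 and 0.0614 CPM in mediastinal node and 0.175, 0.314 and 0.288 CPM elsewhere, and Cldn18 was at 0 in mediastinal node. Outside mediastinal node Slc34a2 was seen in deep cervical node, at 0.874 CPM, with 0 in super cervical, inguinal, ileal and ceco-colonic node. Sftpd, the other collectin of surfactant, named here after its values were seen, averaged 13.7 ± 9.51 CPM in mediastinal node and 1.01 ± 0.79 CPM elsewhere (3.90 ± 0.43, edgeR adjusted p = 3.24e-07).

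Simple epithelium markers outside the 10 genes were called higher in mediastinal node for 4 of 18 and lower for 1, which is near the 24.3% called higher over all genes, so nothing is read from the count. Cldn7, Elf3 and Cldn3 rose by 1.88 ± 0.51, 1.59 ± 0.53 and 3.14 ± 0.60, and Grhl2 fell by 1.98 ± 0.42 (edgeR adjusted p = 0.00504, 0.0183, 0.000318 and 0.000587). Cldn7, Elf3 and Cldn3 averaged 3.775, 2.397 and 2.177 CPM in mediastinal node, below deep cervical node at 74.07, 30.6 and 15.01 CPM. Without mediastinal replicate 3, 1 of the 18 was called higher. The summed CPM of the list was 352 to 387 in mediastinal node and 205 to 1990 in the other nodes. Markers of other cells moved in mediastinal node too: 6 of 7 tested migratory dendritic cell genes, 7 of 10 reticular stroma genes and 6 of 9 sinus macrophage genes were called higher. The summed CPM of reticular stroma genes was 2150 to 2170 in the 3 mediastinal libraries and 358 to 1980 elsewhere, and that of airway secretory genes was 200 to 1150 and 1.62 to 796. Thymocyte markers summed to 63.5 to 76.8 CPM in mediastinal node and 9.77 to 57.2 CPM elsewhere, with 2 of 6 called higher and 1 lower, and 1 higher without mediastinal replicate 2. The part of these cells in the result was not tested.

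**Figure D2:**
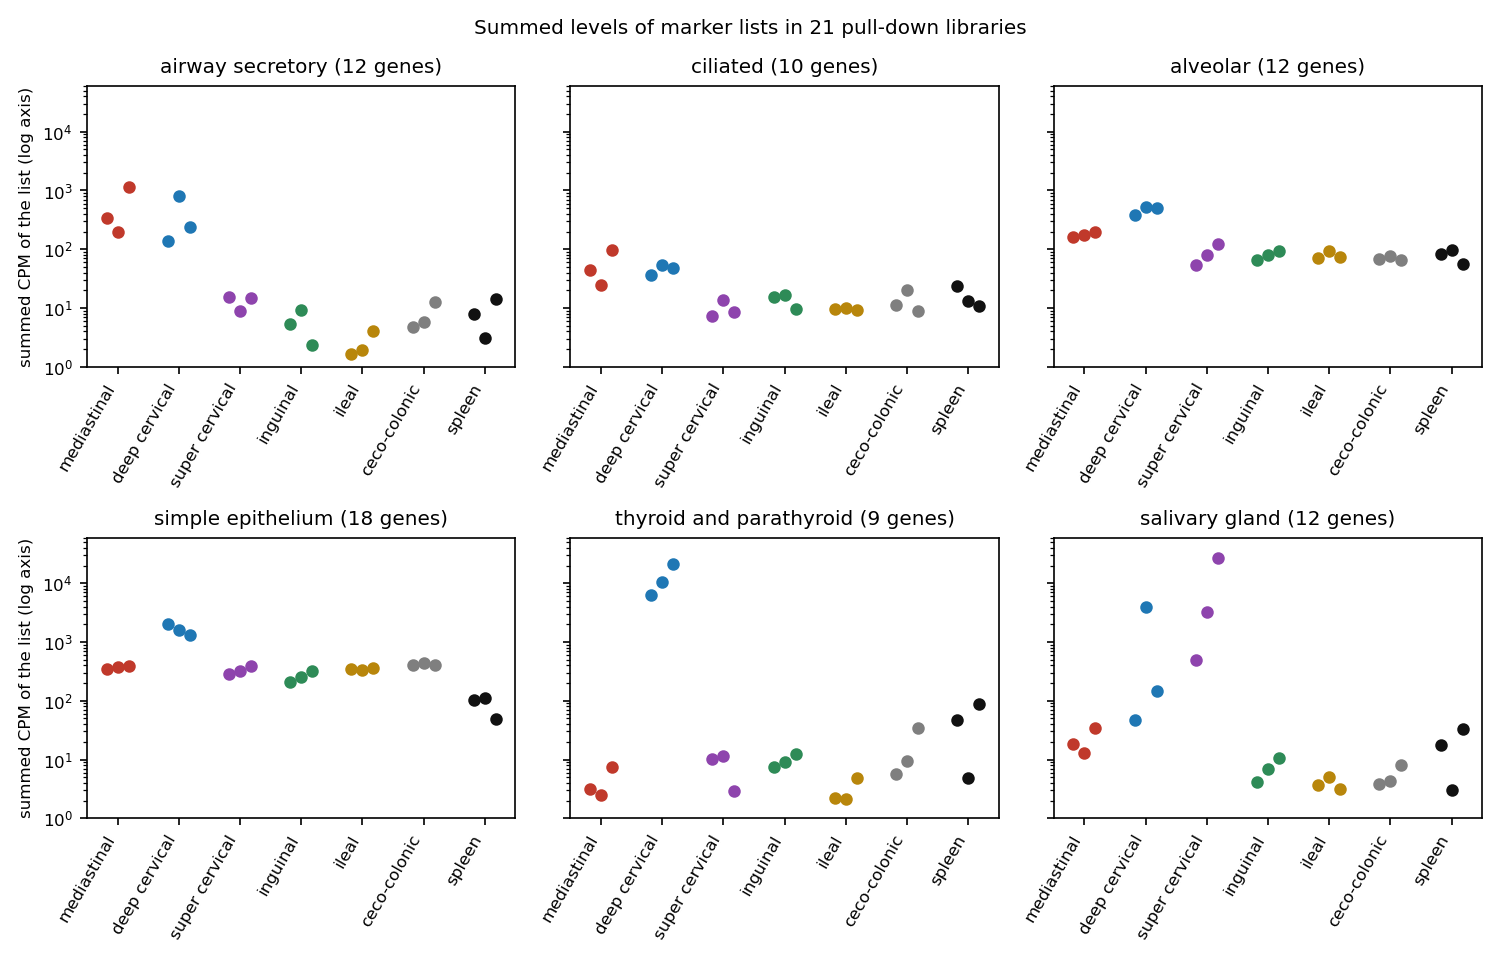
Each point is the summed CPM (log axis) of the genes of one marker list in one of 21 pull-down libraries, grouped by site. Airway secretory genes sum to 200 to 1150 CPM in mediastinal node, thyroid and parathyroid genes to 6240 to 21100 CPM in deep cervical node, and salivary genes reach 27100 CPM in super cervical node.

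The keratins, Epcam and Wfdc2 had their highest means in deep cervical node. Krt8 and Krt18 lie near each other on chromosome 15, and their promoters are shown because the partner genes departed from each other between nodes. They are again RefSeq sequences on GRCm38.p6 in the direction of the gene, with Krt8 at chr15:102004293-102004592 on the minus strand and Krt18 at chr15:102027966-102028265 on the plus strand. Capitals mark TATAAA on either strand.
Krt8: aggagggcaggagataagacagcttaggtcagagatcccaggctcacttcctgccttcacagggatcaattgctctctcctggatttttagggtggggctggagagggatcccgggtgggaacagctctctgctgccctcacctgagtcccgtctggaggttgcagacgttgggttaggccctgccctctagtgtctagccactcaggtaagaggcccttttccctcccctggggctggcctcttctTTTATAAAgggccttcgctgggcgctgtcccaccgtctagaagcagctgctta
Krt18: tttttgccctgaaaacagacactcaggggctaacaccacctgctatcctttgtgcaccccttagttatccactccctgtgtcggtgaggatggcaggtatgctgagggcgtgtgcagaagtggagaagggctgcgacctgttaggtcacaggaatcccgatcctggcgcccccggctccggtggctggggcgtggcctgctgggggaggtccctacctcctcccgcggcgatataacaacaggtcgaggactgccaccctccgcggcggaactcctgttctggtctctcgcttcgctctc
Krt8 held a pair of overlapping TATAAA matches on opposite strands, with first bases 3 and 1 bases before the annotated start. Krt18 held neither TATAAA nor CTCAAG. Epcam and Wfdc2 held neither as well, so CTCAAG was found in Sftpa1 and Sftpb only among the 6 of 10 genes searched. The promoters of Scgb1a1, Scgb3a2, Sftpc and Krt19 were not searched, so nothing is said of them. Another motif, AACNGGTT, bound by grainyhead factors of epithelium, was in 2.01% of all promoters and in none of the 6.

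Krt8 had 751, 532 and 293 CPM in deep cervical node. Inguinal node followed with 5.44, 22.8 and 62.9 CPM, mediastinal node with 13.9, 6.25 and 56.8 CPM and super cervical node with 1.04, 3.83 and 24.4 CPM. Deep cervical node did not overlap any of them, while inguinal and mediastinal node overlapped. Spleen had 3.16 ± 3.99 CPM, ceco-colonic node 0.624 ± 0.725 CPM and ileal node 0.539 ± 0.29 CPM.

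Krt18 had 868, 497 and 206 CPM in deep cervical node and 23.5, 119 and 194 CPM in inguinal node. These ranges came close without overlapping. Super cervical node had 7.28, 18.9 and 81.8 CPM, and mediastinal node had 18.7, 8.58 and 62.9 CPM. Ceco-colonic node, spleen and ileal node stood at 1.86 ± 1.19, 1.73 ± 0.55 and 0.893 ± 0.334 CPM.

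The proportion of the keratin partners differed between nodes. The count of Krt8 per count of Krt18 was 0.865, 1.07 and 1.42 in deep cervical node and 0.744, 0.728 and 0.903 in mediastinal node. It was 0.232, 0.191 and 0.324 in inguinal node and 0.143, 0.203 and 0.298 in super cervical node. The ranges of deep cervical and mediastinal node overlapped each other, as did those of inguinal and super cervical node, and the higher pair of nodes did not overlap the lower pair. Ileal node spanned both pairs, with 13, 36 and 5 counts of Krt8 beside 13, 51 and 19 counts of Krt18. Super cervical replicate 1 rested on 1 and 7 counts, and ceco-colonic node and spleen held 0 to 7 counts of Krt8 per library.

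**Figure D3:**
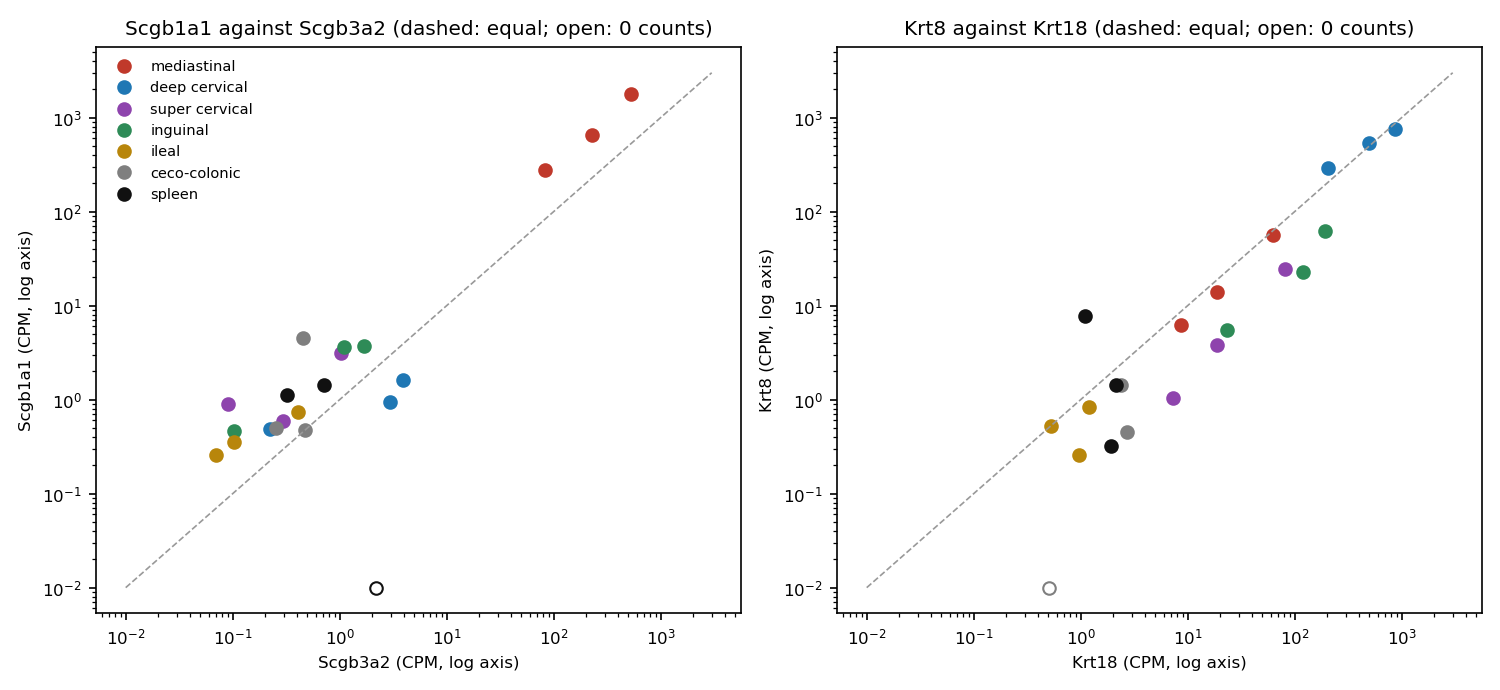
Each point is one of 21 pull-down libraries, with Scgb1a1 against Scgb3a2 on the left and Krt8 against Krt18 on the right, both in CPM on log axes, with a dashed line of equal level and open circles for 0 counts. The 3 mediastinal libraries keep 2.9 to 3.35 counts of Scgb1a1 per count of Scgb3a2, and inguinal and super cervical libraries lie below the line for Krt8, at 0.143 to 0.324 counts per count of Krt18.

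Krt19 had 66.7, 67.0 and 52.4 CPM in deep cervical node, the group with the smallest spread relative to its mean among the 10 genes at that site. Mediastinal node had 13.8, 5.15 and 44.8 CPM and inguinal node 4.42, 9.77 and 24.9 CPM, and these overlapped. Super cervical node differed from these nodes, with 0, 0 and 0.179 CPM of Krt19 beside 81.8 CPM of Krt18 in replicate 3. That library held 456 counts of Krt18 per count of Krt19, a ratio that rests on 913 and 2 counts. The same ratio was 5.31 to 12.2 in inguinal, 3.94 to 13 in deep cervical and 1.35 to 1.67 in mediastinal node.

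Epcam had 89.2, 174 and 177 CPM in deep cervical node. Mediastinal node had 7.49, 6.98 and 11.3 CPM, super cervical node 2.08, 4.72 and 10.9 CPM and inguinal node 4.76, 4.34 and 5.99 CPM. Below deep cervical node the sites overlapped their neighbours, from ceco-colonic node at 4.57 ± 1.15 CPM and spleen at 2.89 ± 1.89 CPM to ileal node at 2.05 ± 0.44 CPM. Inguinal node thus had Krt18 at 112 ± 85.5 CPM with Epcam at 5.03 ± 0.86 CPM, or 4.93 to 32.4 counts of Krt18 for each of Epcam, against 1.17 to 9.73 in deep cervical node.

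Wfdc2 was shared by the mediastinal and deep cervical nodes. It had 441, 383 and 169 CPM in deep cervical node and 84.2, 34.2 and 171 CPM in mediastinal node, which overlapped. Inguinal node had 9.18, 16.6 and 31.1 CPM, super cervical node 4.16, 3.54 and 10.8 CPM, and ceco-colonic node, spleen and ileal node 1.25 ± 0.70, 0.773 ± 1.2 and 0.312 ± 0.052 CPM. Over the 22 libraries Wfdc2 ran with Krt18 at r = 0.90 and with Scgb1a1 at 0.46. Its closest genes outside the 10 were the water channel Aqp5 (0.90), Cdh1 (0.89), which encodes E-cadherin, and Cldn7 (0.88). Cdh1 was also among the 3 closest genes of Krt8 at 0.90 and of Epcam at 0.95. Smim22, Bicdl2 and Aqp5 were closest to Krt18, and Fabp3, Tuba8 and Gpx8 to Krt19, at 0.87 to 0.92.

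Deep cervical node against the mean of the other 5 nodes had 7 of the 10 genes called higher and 1 lower, where 20.7% of all genes were called higher and 13.9% lower. As in mediastinal node, nothing is read from that count. The lower one was Scgb1a1, at 1.02 ± 0.57 CPM in deep cervical node against a mean that includes mediastinal node. Of the 18 simple epithelium genes outside the 10, 16 rose and 1 fell. Their median log2 fold change was 5.05, against -0.01 over all genes. The protease inhibitor gene Spint2 averaged 709 ± 116 CPM in deep cervical node and 278 ± 62.1 CPM elsewhere (1.38 ± 0.27, edgeR adjusted p = 0.000224). Krt7, a further simple keratin, averaged 437 ± 207 CPM in deep cervical node and 8.22 ± 7.37 CPM elsewhere (5.99 ± 0.33, edgeR adjusted p = 1.74e-14). Cdh1 and the tight junction gene Cldn7 rose by 5.61 ± 0.34 and 7.03 ± 0.44 (edgeR adjusted p = 1.35e-13 and 1.5e-12). Between 15 and 16 of the 18 were called higher whichever library was left out.

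Thyroid and parathyroid genes, like the keratins, were high in deep cervical node. Of 9 such genes 8 could be tested and 7 rose, and their summed CPM was 6240 to 21100 in deep cervical node and 2.16 to 34.4 elsewhere. Calca, which encodes calcitonin, averaged 5889 ± 1135 CPM in deep cervical node and 2.09 ± 2.49 CPM elsewhere (11.97 ± 0.62, edgeR adjusted p = 2.4e-12). Tg, which encodes thyroglobulin, had 1438, 3205 and 9602 CPM in the 3 deep cervical libraries, and Pth, parathyroid hormone, had 172, 599 and 5177 CPM. Replicate 3, the highest in Tg and Pth, was the lowest in Krt8, Krt18, Krt19 and Wfdc2 and the highest in Epcam. Nkx2-1, a factor of both thyroid and lung, averaged 189 ± 63.6 CPM in deep cervical node and 1.45 ± 1.35 CPM elsewhere (7.43 ± 0.41, edgeR adjusted p = 5.71e-14). In mediastinal node it stood at 1.85 ± 1.22 CPM and was not called (edgeR adjusted p = 0.382). Ager also rose in deep cervical node, at 368 ± 66.5 CPM against 4.18 ± 1.26 CPM elsewhere (6.43 ± 0.25, edgeR adjusted p = 9.21e-18). The part of thyroid and parathyroid RNA in the keratin levels was not tested.

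Airway secretory markers in deep cervical node depended on a single library. Of 11 tested airway secretory genes 7 were called higher, but 2 without replicate 2. That library held 356 CPM of Scgb3a1, against 18.6 and 1.03 CPM in the other two, and 57.6 CPM of the mucosal peptide gene Tff2, against 0 and 0.0447 CPM. It also held 3940 CPM of summed salivary gland genes, against 47.2 and 146 CPM in the other two. Scgb1a1 was 0.935 CPM in that library, and its part in the other members' levels was not tested.

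Super cervical node against the other nodes had 0 of the 10 genes called higher and 1 lower, Krt19, where 5.93% of all genes were called higher and 1.15% lower. Salivary gland genes summed to 487, 3290 and 27100 CPM in the 3 super cervical libraries and to 3.16 to 3940 CPM elsewhere. All 11 that could be tested were called higher, but Smgc, Pip and Bpifa2, at 3.14, 34.01 and 204.6 CPM there, stood at 0, 0.06 and 0.165 CPM elsewhere and passed the filter through this node, so the count is no support. Smr3a, a prohormone-like protein of the submandibular gland, averaged 1818 ± 1768 CPM in super cervical node and 0.311 ± 0.383 CPM elsewhere (12.84 ± 0.64, edgeR adjusted p = 3.88e-11). Smr3a too passed the filter through this node, so its fold change and p-value are a description only. Without super cervical replicate 3, 7 of the salivary genes were called higher, and DESeq2 called 5. The paralogs Dcpp1, Dcpp2 and Dcpp3 were also called, and counts may be split among them. Replicate 3, with the most salivary RNA, was also the highest in Krt8, Krt18, Epcam and Wfdc2. It was the deepest super cervical library as well, at 9067640 counts, and the part of depth was not tested. Of the 18 simple epithelium genes 3 rose, Ehf, Esrp1 and Marveld3, on 1.73 to 25.5 CPM. Without super cervical replicate 3 the log2 fold change of Marveld3 turned to -5.615 (edgeR adjusted p = 0.404), and the calls of Ehf and Esrp1 were lost in most alternatives. The part of salivary RNA in the keratin levels was not tested.

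Inguinal node against the other nodes had 2 of the 10 genes called higher, Krt18 and Krt19, and 0 lower, where 12.6% of all genes were called higher and 5.07% lower. Among 6 tested mammary genes 2 rose. Areg, an epidermal growth factor relative made in mammary ducts, averaged 34.3 ± 22.9 CPM in inguinal node and 1.498 ± 3.69 CPM elsewhere (5.83 ± 0.49, edgeR adjusted p = 4.06e-08). Prlr, the prolactin receptor, averaged 18.4 ± 3.83 CPM in inguinal node against 37.9 ± 72.5 CPM over the other nodes, where deep cervical node alone had 177 ± 20.4 CPM (1.55 ± 0.29, edgeR adjusted p = 0.000799). The milk protein genes Csn1s1 and Wap were at 0 in inguinal node. Areg had 12.2, 32.6 and 57.9 CPM in the 3 inguinal libraries, in the same order as Krt8, Krt18, Krt19 and Wfdc2, and Epcam did not follow that order. The totals of these libraries rose in that order too, at 3086740, 3285802 and 16823454 counts, and the part of depth was not tested. Of the 18 simple epithelium genes 1 rose, Grhl2, and 1 fell, Spint1, and both calls were lost without inguinal replicate 1. The part of mammary RNA in the keratin levels was not tested.

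Ileal and ceco-colonic node averaged 4.57 CPM or less of each of the 10 genes. Ileal node, with 18811172 to 31849079 counts per library, had 0 of the 10 genes called higher and 5 lower, where 1.55% of all genes were called higher and 0.629% lower. Ceco-colonic node had 0 called higher and 2 lower, where 2.86% of all genes were called higher and 0.843% lower. Both comparison means include deep cervical node, at 525 CPM of Krt8 and 147 CPM of Epcam, and mediastinal node, at 905 CPM of Scgb1a1. Of the 18 simple epithelium genes 5 fell in ileal node, among them Krt7 by 2.59 ± 0.49 and Cdh1 by 3.39 ± 0.54 (edgeR adjusted p = 0.00191 and 0.000264), and 3 fell in ceco-colonic node. The ileal number was 3 without ileal replicate 2, and the ceco-colonic number was 0 without ceco-colonic replicate 1. Intestinal epithelium markers were low as well, with a sum over 10 genes of 3.47 to 3.71 CPM in ileal and 1.89 to 4.8 CPM in ceco-colonic node.

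Spleen against the mean of the 6 nodes had 1 of the 10 genes called higher, Sftpb, and 3 lower, Wfdc2, Krt18 and Epcam, where 25.7% of all genes were called higher and 31.4% lower. Of the 18 simple epithelium genes 9 were called lower in spleen and 0 higher. Their median log2 fold change was -2.78, against -0.27 over all genes. Without spleen replicate 2, 3 of the 18 were called lower. Spint2 averaged 49.6 ± 26.3 CPM in spleen and 350 ± 179 CPM over the nodes (-2.66 ± 0.37, edgeR adjusted p = 1.38e-06), and Cldn3, Cldn4 and Cldn7 had 0 counts in spleen. Of 8 tested alveolar genes 0 were called higher in spleen and 4 lower, among them Hopx (log2 fold change -2.26 ± 0.44, edgeR adjusted p = 0.000107). Without spleen replicate 1, 2 were called lower. Lamp3, Slc34a2 and Cldn18 had 0 counts in spleen.

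Outside mediastinal node both secretoglobins were at low counts. The 19 other libraries of 1000000 counts or more held 0 to 18 counts of Scgb1a1, with a median of 7 and at least 1 count in 18 of them. The 14 shallow libraries held 0 to 10 counts, with a median of 3 and at least 1 count in 13 of them. The isotype library held 6 counts. Scgb3a2 had 1 to 19 counts in those 19 deeper libraries, with a median of 2, and 0 to 3 counts in the shallow ones, with at least 1 count in 7 of 14. Pooled over the 14 shallow libraries Scgb1a1 stood at 9.37 CPM (exact Poisson 95% interval 7.11 to 12.1, counting error only), against 1.2 CPM in the isotype library (0.44 to 2.61). Celiac and iliac nodes held 16 and 17 counts over their 3 libraries, duodenal and liver nodes 8 and 4. At the median depth of a shallow library the mediastinal level would have given 332 counts.

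**Figure D4:**
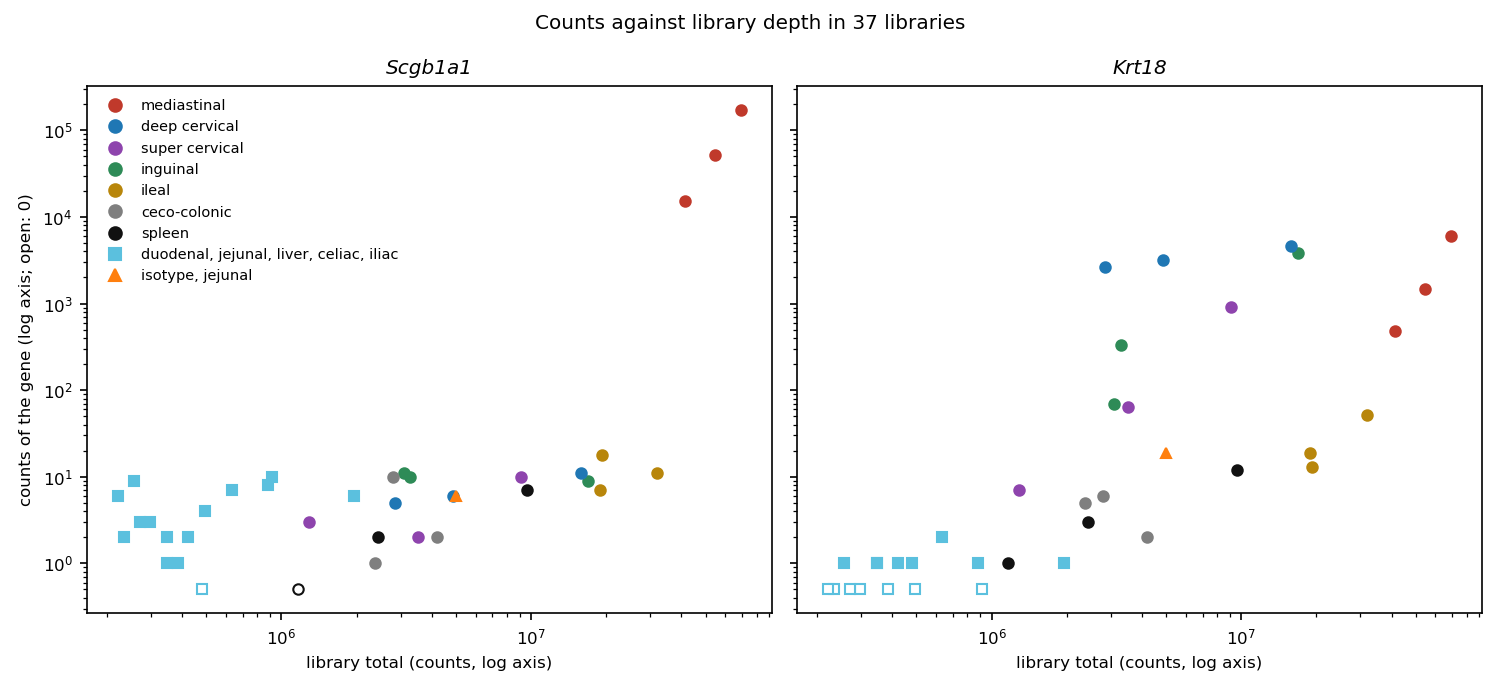
Each point is one of the 37 libraries, with its total count on the x axis and the counts of Scgb1a1 (left) or Krt18 (right) on the y axis, both on log axes, and open symbols for 0 counts. Outside mediastinal node Scgb1a1 stays between 0 and 18 counts at every depth, while Krt18 reaches 4617 counts in deep cervical libraries.

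The isotype library gives the background of the pull-down for jejunal node, with no replicate. It held 19 counts of Krt18, 3 of Krt8, 3 of Epcam, 6 of Sftpb and 1 of Wfdc2, and 0 of Scgb3a2, Sftpa1, Sftpc and Krt19. The 3 jejunal pull-downs held 0, 1 and 1 counts of Krt18 and 0 of Krt8 in all 3. Krt18 thus stood at 3.8 CPM in the isotype library (exact Poisson 95% interval 2.29 to 5.93), beside 0, 0.513 and 3.9 CPM in the jejunal pull-downs, and this difference was not tested.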

How the data were processed

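RNA from ribosome pull-downs was made into poly(A) libraries, per the labels' protocols. The authors deposited 1 table of unscaled estimated counts, with 56351 genes and 37 libraries. The submitters' processing notes list the tools limma, edgeR and kallisto but give neither role nor version. The notes name both GRCm39 and mm10, so no coordinates of the counted genes are given, and the promoter coordinates are those of RefSeq on GRCm38.p6. Rounding to integers preceded every test, since 99.3% of the values above 0 were not whole (tolerance 0.001). The 211 genes without a symbol held 0.0159% to 0.115% of a library's counts. Estimated counts can be split between paralogs and pseudogenes, and whether the counting used strand is not given in the sources used here.

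The 10 genes and the 16 marker lists were chosen with earlier results of these data known. Tests used edgeR 4.0.16 in R 4.3.3 on the 22 pull-down libraries with 1000000 counts or more, with TMM scaling, filterByExpr (minimum count 10, minimum total 15; 19702 genes left), a robust quasi-likelihood model with 1 mean per site, and Benjamini-Hochberg adjusted p-values over all genes tested, called below 0.05. All 10 genes passed the filter. The jejunal library was a group of its own in the fit and entered no contrast. Each of 6 nodes was set against the mean of the other 5, and spleen against the mean of the 6, so these contrasts share libraries. Errors of fold changes are standard errors, other errors are SD. Genes named from a list are up to 4 that pass the threshold, by their highest mean CPM, and the 3 genes nearest to each of the 10 by Pearson correlation of log2 CPM (prior count 2). The scripts were tested on simulated data. Intervals and floors cover counting error only, and a floor is 3 counts. Replicates of a site all differed beyond sampling noise. Alternatives were DESeq2 1.42.0, other scalings, no filter, all 36 pull-downs, the replicate number as a block, and leaving out each library.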

Additional observations from a re-analysis of the deposited data

Results flagged for a closer look

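In libraries that no contrast used, some of these genes stood above the isotype library. Scgb1a1 had a pooled 9.37 CPM in the 14 pull-down libraries under 1000000 counts (58 counts, with a count in 13 of 14), against 1.2 CPM in the isotype library. Scgb3a2 had 2.75 CPM (17 counts, in 7 of 14 libraries) against 0 counts. Wfdc2 had 3.07 CPM (19 counts, in 11 of 14) against 0.2 CPM. Krt19 had 2.1 CPM (13 counts, in 3 of 14) against 0 counts, and 8 of its counts lay in iliac replicate 3. The 14 libraries held 221911 to 917912 counts, with 39% to 85.6% in the features that carry ribosomal sequence, and the isotype library held 5002926 counts with 6.5% there. The part of these differences in the result was not tested.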

How the results depend on the processing

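With other scalings, filters, library sets or tools, the count of genes called moved by over 1.5 times for the nodes named here. Plain library totals gave 849 genes for super cervical node (1395 in the reported fit) and 327 for ceco-colonic node (730). No filter on low counts gave 2279 for super cervical, 744 for ileal (430) and 1515 for ceco-colonic node. All 36 pull-downs gave 3986 for deep cervical (6809), 766 for super cervical, 1754 for inguinal (3477), 198 for ileal and 211 for ceco-colonic node. DESeq2 gave 5259 for inguinal, 715 for ileal and 1782 for ceco-colonic node. Leaving out 1 library gave 4763 to 9195 for mediastinal (8352), 3717 to 7753 for deep cervical, 304 to 2503 for super cervical, 666 to 4688 for inguinal, 153 to 505 for ileal, 25 to 1733 for ceco-colonic node and 9704 to 11605 for spleen (11248), the last within 1.5 times throughout. The lowest counts came without mediastinal replicate 3, deep cervical replicate 3, super cervical replicate 2, inguinal replicate 1, ileal replicate 2, ceco-colonic replicate 3 and spleen replicate 1. The highest for super cervical node came without its replicate 3 and for ceco-colonic node without deep cervical replicate 1. The cause was not tested.

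Scaling moved the share of called genes that were higher. It was 57.2% for mediastinal node and 74.2% with plain totals. For deep cervical node it was 59.9%, 70.5% with DESeq2 size factors and 71.7% with plain totals. For inguinal node it was 71.3% and 61.2% with DESeq2 size factors. For ceco-colonic node it was 77.3%, 59.7% with DESeq2 size factors and 35.2% with plain totals, and for spleen 45.0% and 24.7% with plain totals. Plain totals moved the median change over all tested genes (log2) to 0.46 for mediastinal, 0.23 for deep cervical, -0.15 for super cervical, -0.26 for inguinal, 0.17 for ileal and -0.51 for ceco-colonic node and to -1.05 for spleen, against 0.08, -0.01, 0.02, -0.06, 0.01, -0.08 and -0.27 in the reported fit.

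Of the fold changes of the 10 genes under the alternatives, 1424 stayed within the spread between replicates and 265 moved by more. Of those called in the reported fit 0 turned round. A change of sign was not counted for the 10 genes where the reported fit had no call. Among the listed genes 3 turned round, each when 1 library was left out. Bpifb1 in deep cervical node turned to -0.861 without replicate 2 (edgeR adjusted p = 0.608), with 6.895 the highest value. Marveld3 in super cervical node turned to -5.615 without replicate 3 (edgeR adjusted p = 0.404), with 4.342 the highest. Ccl25 in spleen turned to -0.925 without replicate 2 (edgeR adjusted p = 0.676), with 2.377 the highest.

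With the replicate number as a block, 8684, 6936, 1602, 4030, 489 and 1063 genes were called for mediastinal, deep cervical, super cervical, inguinal, ileal and ceco-colonic node and 11095 for spleen. The numbers share no stated source, and same-numbered libraries deviated together (correlation over 0.1) in 16 of 63 pairs, with 12 of 21 libraries closest to their own number. Depth limits the 14 shallow libraries, where 3 counts are 3.27 CPM or more.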

Other observations

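Other epithelial and neighbouring tissues were described by marker lists as well. Mesothelium genes had 3 of 6 tested members higher in mediastinal node, with 1 lower, and 3 of 6 higher in deep cervical node with 0 lower, where 24.3% and 20.7% of all genes were called higher. Their summed CPM overlapped, at 18.9 to 26 in mediastinal node and 12.1 to 42.2 in the other 5. Muc16, a mucin of mesothelium and airway, had 1.997, 3.37 and 7.43 CPM in mediastinal node, and 0, 15.9 and 1.83 CPM in deep cervical node. Thymic epithelium genes summed to 12.1 to 14.7 CPM in mediastinal node and 7.54 to 31.2 CPM in the other 5, with 1 of 5 tested members higher and 2 lower, a share of higher genes near that over all genes. Pancreatic genes summed to 0.724 to 4.96 CPM in the 6 nodes, with 0 of 2 tested members called in any of the 7 contrasts.

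Glycam1, a member of the mammary list that high endothelial venules of lymph nodes also express, averaged 1161 ± 560 CPM in mediastinal node and 143 ± 117 CPM in the other 5 (log2 fold change 3.04 ± 0.68, edgeR adjusted p = 0.00235).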
